A study of Mus musculus with 16 samples.

Results

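The 10 genes described here encode the mouse ErbB receptors and a set of their EGF-like ligands. They were taken by gene symbol from the expression tables of a RiboTag study of the neonatal cochlea, which list 47729 genes with a value. The 4 receptors are Egfr, Erbb2, Erbb3 and Erbb4. The 6 ligands are Areg (amphiregulin), Ereg (epiregulin), Btc (betacellulin), Tgfa (transforming growth factor alpha), Epgn (epigen) and Nrg1 (neuregulin 1). All 10 symbols were found once in every library.

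The study asked which genes GLAST-Cre+ cells of the cochlea translate, and how that changes after Lgr5+ cells are ablated. Control mice were GLAST-CreERT/+; Rpl22 HA/+, and DTR mice were Lgr5 DTR/+; GLAST-CreERT/+; Rpl22 HA/+. GLAST-CreERT is a tamoxifen-inducible Cre driven from Slc1a3, the glutamate transporter gene of glia and of inner phalangeal cells, and Rpl22 HA tags the ribosomes of cells with Cre activity, so that their mRNA can be pulled down with an anti-HA antibody (IP) and set against RNA of the whole homogenate (input). Lgr5 DTR places the human diphtheria toxin receptor, which is itself the human HB-EGF precursor and thus an EGF-like ligand, together with EGFP, into the Lgr5 locus. Mice of both sexes were taken at postnatal day 4, after diphtheria toxin and tamoxifen given to both genotypes soon after birth. The labels, in contrast, describe the control libraries as untreated. Each replicate was a pool of cochleae from several mice, from which lateral wall, Reissner's membrane and spiral ganglia had been dissected away, and gave 1 input and 1 IP library. There were 8 pools, 4 of each genotype, and 16 libraries in 4 groups.

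ErbB receptors are tyrosine kinases that work as pairs. EGFR binds the EGF-like ligands TGF-alpha, amphiregulin, epigen, betacellulin, HB-EGF and epiregulin, whereas ERBB3 and ERBB4 bind neuregulins. ERBB2 has no known ligand and serves as the partner of the others, and ERBB3 has little kinase activity of its own, so that the ERBB2 and ERBB3 pair is a common signalling unit, above all in Schwann cells, whose survival and myelination depend on axonal neuregulin 1. Most ligands are made as membrane precursors and are freed by ADAM proteases, and active receptors feed the RAS, RAF, MEK and ERK cascade, whose fast targets include Egr1 and Fos.

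The libraries held between 28089836 and 41966310 counted reads, so that 3 reads corresponded to 0.0715 to 0.107 CPM (reads of a gene scaled to a fixed number of counted reads per library). Lgr5, the gene that carries the receptor allele, ranged from 59.0 to 66.1 CPM in control input and from 11.2 to 19.6 CPM in DTR input. In IP it fell from between 31.4 and 40.0 CPM to between 8.13 and 11.3 CPM, an LFC (log2 fold change) of -1.93. Mean Lgr5 CPM was 63.3 in control input and 15.9 in DTR input, and 36.6 in control IP and 9.38 in DTR IP. The receptor is knocked into Lgr5, and DTR mice are heterozygous for this allele. The study's imaging showed loss of Lgr5-EGFP+ cells at the same age. The share of the changed allele in the fall of Lgr5 was not tested. Slc1a3, whose promoter drives the Cre, was lower in IP than in input. The LFC of -0.27 in DTR cochleae passed the test described below, and that of -0.20 in control cochleae did not. Of the markers of other cells, 9 of 9 hair cell genes and 8 of 8 macrophage genes were lower in control IP than in control input. Marker sums still reached 169 to 249 CPM for hair cells and 1829 to 2185 CPM for Schwann cells and satellite glia in control IP (532 to 728 and 3139 to 5067 CPM in control input). The study's lineage tracing places GLAST-Cre in inner phalangeal cells and the greater epithelial ridge (GER). Of 5 GER markers, 2 were higher and 2 lower in control IP than in control input, with sums of 9477 to 10677 and 6156 to 10104 CPM. In such bulk libraries, fewer cells of a type and less RNA per cell cannot be told apart.

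Levels were first compared between the 10 genes, within each group and per kilobase of exon. In control input, Erbb3 was highest at 36.6 CPM per kb, followed by Erbb2 at 26.1, Tgfa at 7.75 and Egfr at 3.57 CPM per kb, and the 4 libraries of neighbouring genes did not overlap down to that point. Nrg1 (1.29 CPM per kb), Btc (0.912) and Erbb4 (0.801) came next and overlapped their neighbours. Epgn stood at 0.150 CPM per kb, and Areg and Ereg were lower still. In control IP the order of the first 4 genes was the same, but Erbb3 (16.4 CPM per kb) and Erbb2 (15.3) overlapped, and the same 2 genes overlapped in both DTR groups. Btc (1.81 CPM per kb) was ahead of Nrg1 (1.18) in control IP, with overlapping libraries. The order depended on the length used. The study's methods speak of reads in coding regions, and Tgfa has 554 coding bases in 6490 exonic bases. Per kilobase of coding sequence Tgfa came first, at 90.8 CPM in control input against 54.8 for Erbb3, 36.0 for Erbb2 and 10.9 for Egfr, and Btc passed Egfr in the other 3 groups. Within the receptors, the order Erbb3, Erbb2, Egfr, Erbb4 was found with both lengths in every group.

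**Figure D1:**
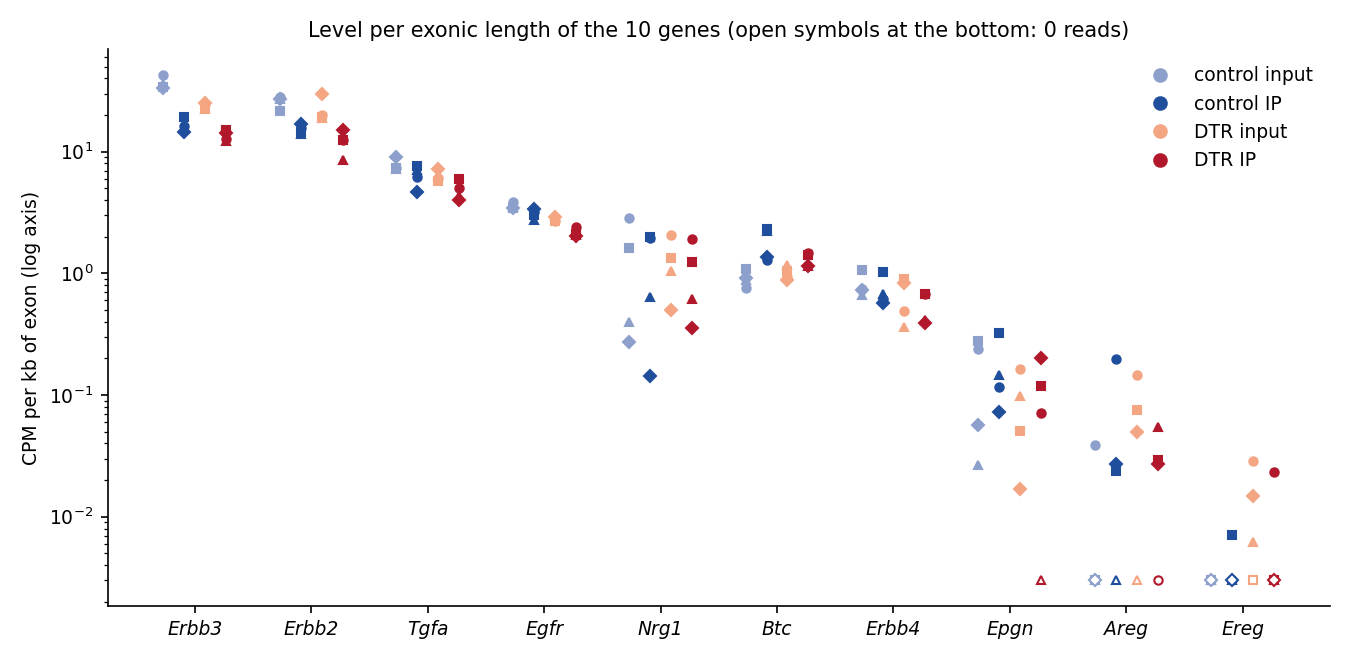
Level of the 10 genes in each of the 16 libraries, in CPM per kb of exon on a log axis, with 1 colour per group and 1 symbol shape per replicate number (circle, square, triangle and diamond for 1 to 4). Open symbols at the bottom stand for libraries with 0 reads. Erbb3 and Erbb2 sit at the top, and Epgn, Areg and Ereg are lowest on average, although the lowest Nrg1 library of control IP lies within the range of Epgn.

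Of the 10 genes, 7 reached 0.5 CPM in every library of some group and entered the test, a limma fit over 16994 genes and all 16 libraries on log2(quantile-normalized CPM + 0.5), with adjusted p under 0.05 as the threshold. Areg, Ereg and Epgn did not enter. The first pair of comparisons set IP against input. In control cochleae, Btc was higher in IP, Erbb2 and Erbb3 were lower, and Egfr, Erbb4, Tgfa and Nrg1 did not pass. Thus 3 of 7 genes passed, where 39.9% of all tested genes did. In DTR cochleae 4 of 7 were lower in IP (Egfr, Erbb2, Erbb3 and Tgfa) and none was higher, beside 39.2% of all genes in either direction and 20.5% for lower. Without overlap of CPM between the groups were 4 of 7 in control (Egfr, Erbb2, Erbb3 and Btc; 38.7% of all genes) and 3 of 7 in DTR cochleae (Egfr, Erbb2 and Erbb3; 32.8%). When the pool that gave both libraries was fitted as a block (the replicate block for IP against input), the calls were the same 3 and 4 genes. They stood beside 48.8% of all genes in control (23.6% higher and 25.3% lower) and 48.2% in DTR cochleae (22.5% and 25.6%). The median LFC of the 7 genes was -0.23 in control and -0.42 in DTR cochleae, against -0.0012 and -0.027 over all tested genes.

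The second pair of comparisons set DTR against control cochleae. In IP, Egfr and Tgfa fell, by 29.9% and 24.2% in mean CPM, and the other 5 did not pass, so that 2 of 7 passed where 15.7% of all genes did, 7.30% in the lower direction. Here the replicate block was the replicate number, which paired libraries across genotypes. In that fit 5 of 7 were lower (Btc, Egfr, Erbb2, Erbb3 and Tgfa), where 23.3% of all genes passed and 11.1% were lower. In input, Egfr and Erbb3 fell, by 21.4% and 35.0%, where 12.4% of all genes passed and 5.21% were lower. With the block the same pair passed in input, beside 17.7% of all genes (9.76% higher and 7.99% lower). CPM did not overlap between genotypes for 1 of 7 genes in IP (Egfr; 17.0% of all genes) and for 3 of 7 in input (Egfr, Erbb3 and Tgfa; 19.3%). The median LFC of the 7 genes was -0.43 in IP and -0.29 in input, against -0.0043 and -0.021 over all tested genes. Both pairs of comparisons draw on the same libraries and are not independent of each other. None of the 7 genes met the study's size criteria in any comparison (an absolute LFC of at least 1 for damage or 2 for enrichment, with the lowest value of the higher group over 1.5 times the highest value of the lower one), which 2.47% of all genes met for DTR IP against control IP, 2.34% for DTR input against control input, 1.26% for control IP against control input and 0.977% for DTR IP against DTR input.

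**Figure D2:**
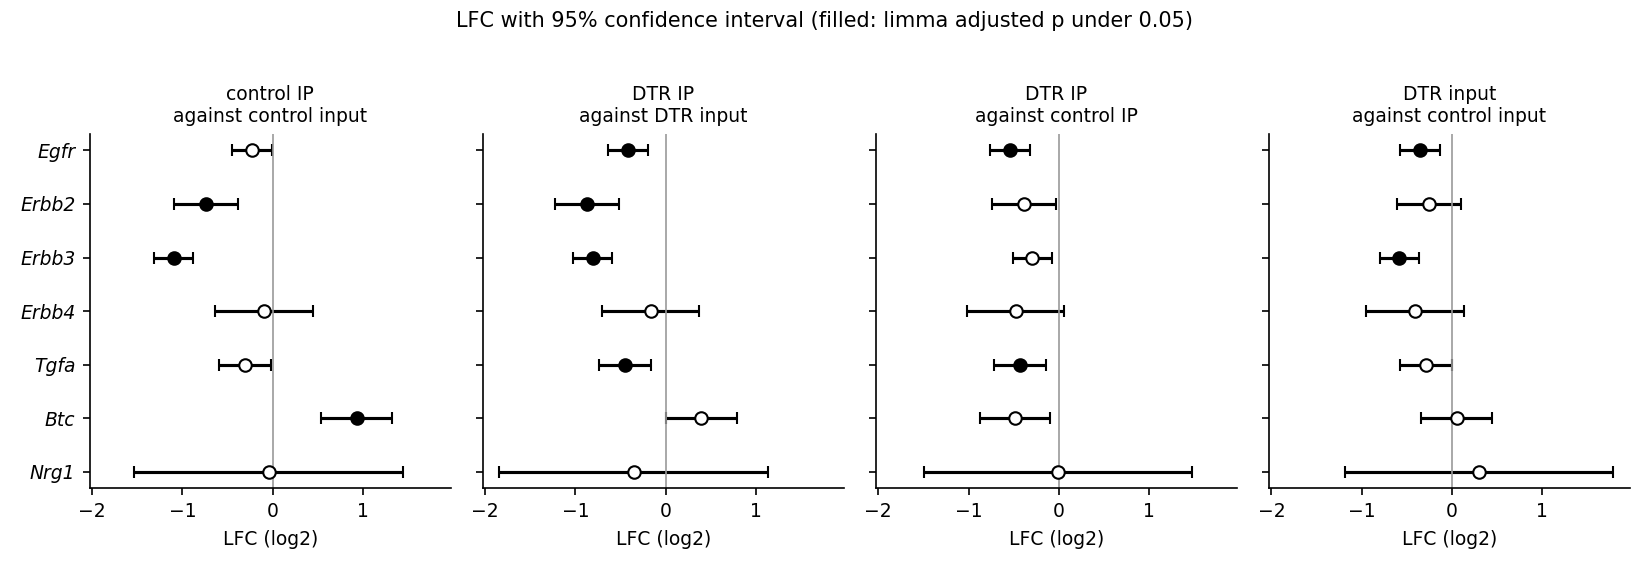
LFC of the 7 tested genes in the 4 comparisons, with the 95% confidence interval of each as a bar and filled points for an adjusted p under 0.05 (limma). Erbb2 and Erbb3 lie left of 0 in both IP to input panels, Egfr and Tgfa are filled in DTR IP against control IP, and the interval of Nrg1 spans more than 2 log2 units in every panel.

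Egfr, the receptor of most EGF-like ligands (ENSMUSG00000020122, chr11:16752203-16918158, plus strand, GRCm38), fell after damage in both IP and input, as Erbb3 did with the replicate block. Its CPM was 43.7, 39.1, 39.8 and 39.3 in control input replicates 1 to 4 and 35.9, 34.4, 31.0 and 38.0 in control IP. In DTR input it was 30.7, 30.4, 33.4 and 32.7 CPM, and in DTR IP 27.5, 23.7, 23.4 and 23.0 CPM. Every DTR IP library was below every control IP library, and every DTR input library below every control input library. The LFC was -0.54 ± 0.10 (SE) in IP, with a limma adjusted p of 0.0012, and -0.35 ± 0.10 in input (adjusted p = 0.032). The fall in IP passed with any 1 library left out. That in input passed in 9 of 16 such fits. It missed the threshold without any 1 of the 4 control input libraries (adjusted p = 0.103 without replicate 1, 0.054 without 2, 0.069 without 3 and 0.057 without 4) or without DTR input replicate 1 (0.099), 2 (0.085) or 4 (0.053). Egfr was also lower in IP than in input in DTR cochleae, with an LFC of -0.42 (adjusted p = 0.0037), while the control groups, with an LFC of -0.23, did not overlap but missed the threshold (adjusted p = 0.089).

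Erbb2, the partner receptor (ENSMUSG00000062312, chr11:98412470-98437716, plus strand), was depleted from the IP in both genotypes. It stood at 148, 113, 141 and 142 CPM in control input and at 82.1, 75.3, 73.3 and 88.4 CPM in control IP. DTR input held 104, 100.3, 97.8 and 157 CPM, and DTR IP 64.8, 65.0, 44.4 and 78.8 CPM. No IP library reached an input library of its genotype, and replicate 4 of DTR input stood apart from the other 3. The LFC from input to IP was -0.74 ± 0.17 in control (limma adjusted p = 0.0018) and -0.87 ± 0.17 in DTR cochleae (adjusted p = 0.00048). DTR IP was below control IP in 4 of 4 pairs of the same replicate number, and the groups overlapped, with an LFC of -0.38 ± 0.17 (adjusted p = 0.14, and 0.030 with the replicate block). Without DTR IP replicate 3 it was -0.23 (limma adjusted p = 0.39), and without DTR IP replicate 4 it was -0.52 and passed the test (adjusted p = 0.042). In input the LFC after damage was -0.25 (adjusted p = 0.40, and 0.17 with the block). An exon of Erbb2 overlaps Mien1 on the other strand, and reads of the 2 genes can be told apart there only if strand was used in counting, which the sources used here do not state.

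Erbb3, the neuregulin receptor that relies on ERBB2 for its kinase activity (ENSMUSG00000018166, chr10:128567523-128589652, minus strand), had the largest drop from input to IP of the 7 genes in control cochleae. Its CPM was 259, 205, 217 and 199.7 in control input and 98.2, 116, 91.7 and 87.9 in control IP. After damage it was 148, 137, 136 and 152 in input and 77.1, 90.1, 73.2 and 85.0 in IP. The 4 input libraries of each genotype lay above its 4 IP libraries, and all DTR input libraries lay below all control input libraries. The LFC from input to IP was -1.10 ± 0.10 in control (limma adjusted p = 1.5e-07) and -0.81 ± 0.10 in DTR cochleae (adjusted p = 7.0e-06). After damage it was -0.58 ± 0.10 in input (adjusted p = 0.00061) and -0.29 ± 0.10 in IP, where the groups overlapped and the adjusted p was 0.062, or 0.046 with the replicate block.

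Genes of Schwann cells and satellite glia moved with Erbb3. Of 10 such markers, 7 were lower and 2 higher in control IP than in control input. In DTR IP 7 were lower and 1 higher than in DTR input. After damage 6 were lower and none was higher in input (8 lower with the replicate block). In IP after damage 3 were lower and 1 was higher (5 and 1 with the block). Of all genes, 20.7%, 20.5%, 5.21% and 7.30% were lower in these comparisons without the block, in that order. Their summed CPM ranged from 3139 to 5067 in control input, 1829 to 2185 in control IP, 1832 to 2763 in DTR input and 1302 to 2204 in DTR IP. None of the 10 was at 0 in any library. The part of these cells in the values of Erbb3 was not tested.

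**Figure D3:**
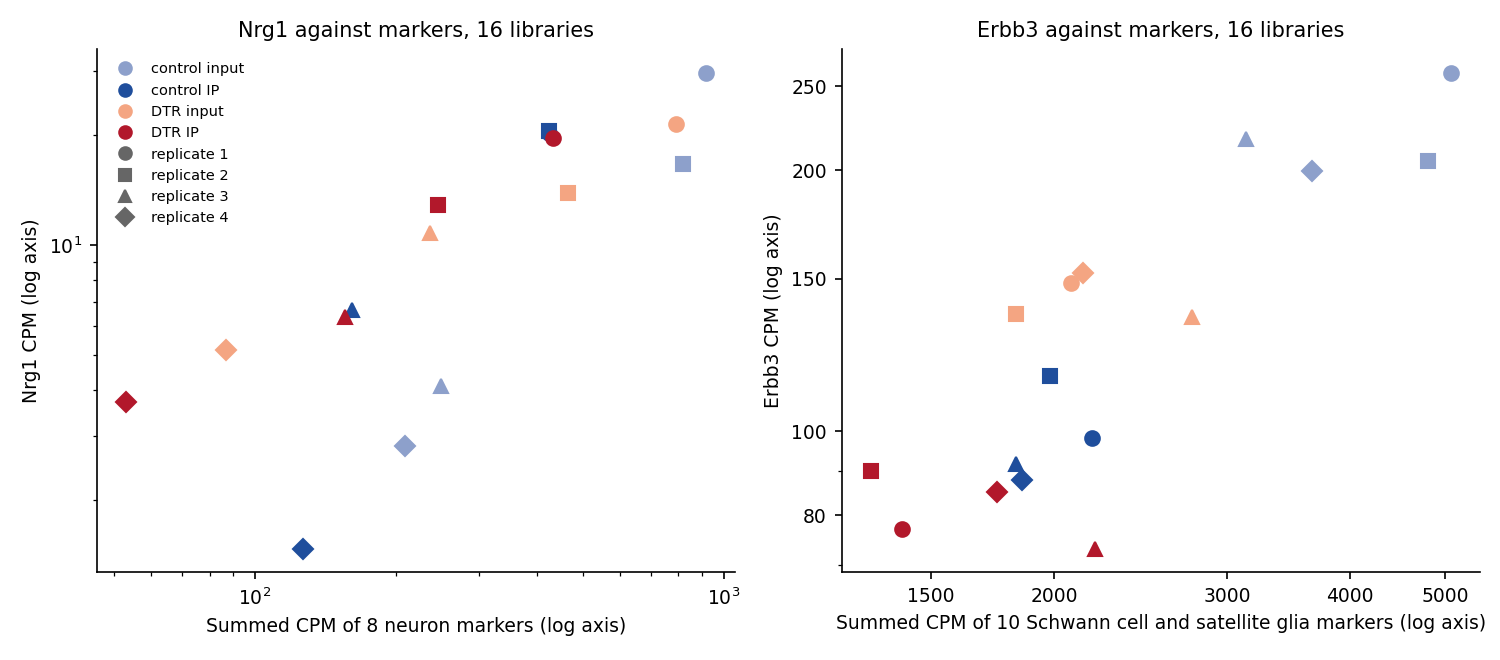
Left, Nrg1 CPM against the summed CPM of 8 neuron markers, and right, Erbb3 CPM against the summed CPM of 10 Schwann cell and satellite glia markers, on log axes, for each of the 16 libraries (colour: group, shape: replicate number). Nrg1 is high in replicates 1 and 2 of every group, as are the neuron markers, and the 4 control input libraries are highest in both measures on the right.

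Erbb4, the other neuregulin receptor (ENSMUSG00000062209, chr1:68032186-69108059, minus strand), was low and passed no test. It was 9.17, 13.2, 8.17 and 9.08 CPM in control input and 7.60, 12.7, 8.32 and 7.09 CPM in control IP. DTR input held 6.09, 11.1, 4.52 and 10.3 CPM and DTR IP 8.39, 8.40, 5.10 and 4.87 CPM. All 4 groups overlapped, and replicate 2 was the highest of its group in each of them. The LFC after damage was -0.48 ± 0.26 in IP (limma adjusted p = 0.24) and -0.41 ± 0.26 in input (adjusted p = 0.38). The value in input was -0.20 without DTR input replicate 3. The IP to input LFC was -0.10 for control and -0.17 for DTR cochleae, with 95% confidence intervals of -0.64 to 0.44 and -0.71 to 0.37.

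**Figure D4:**
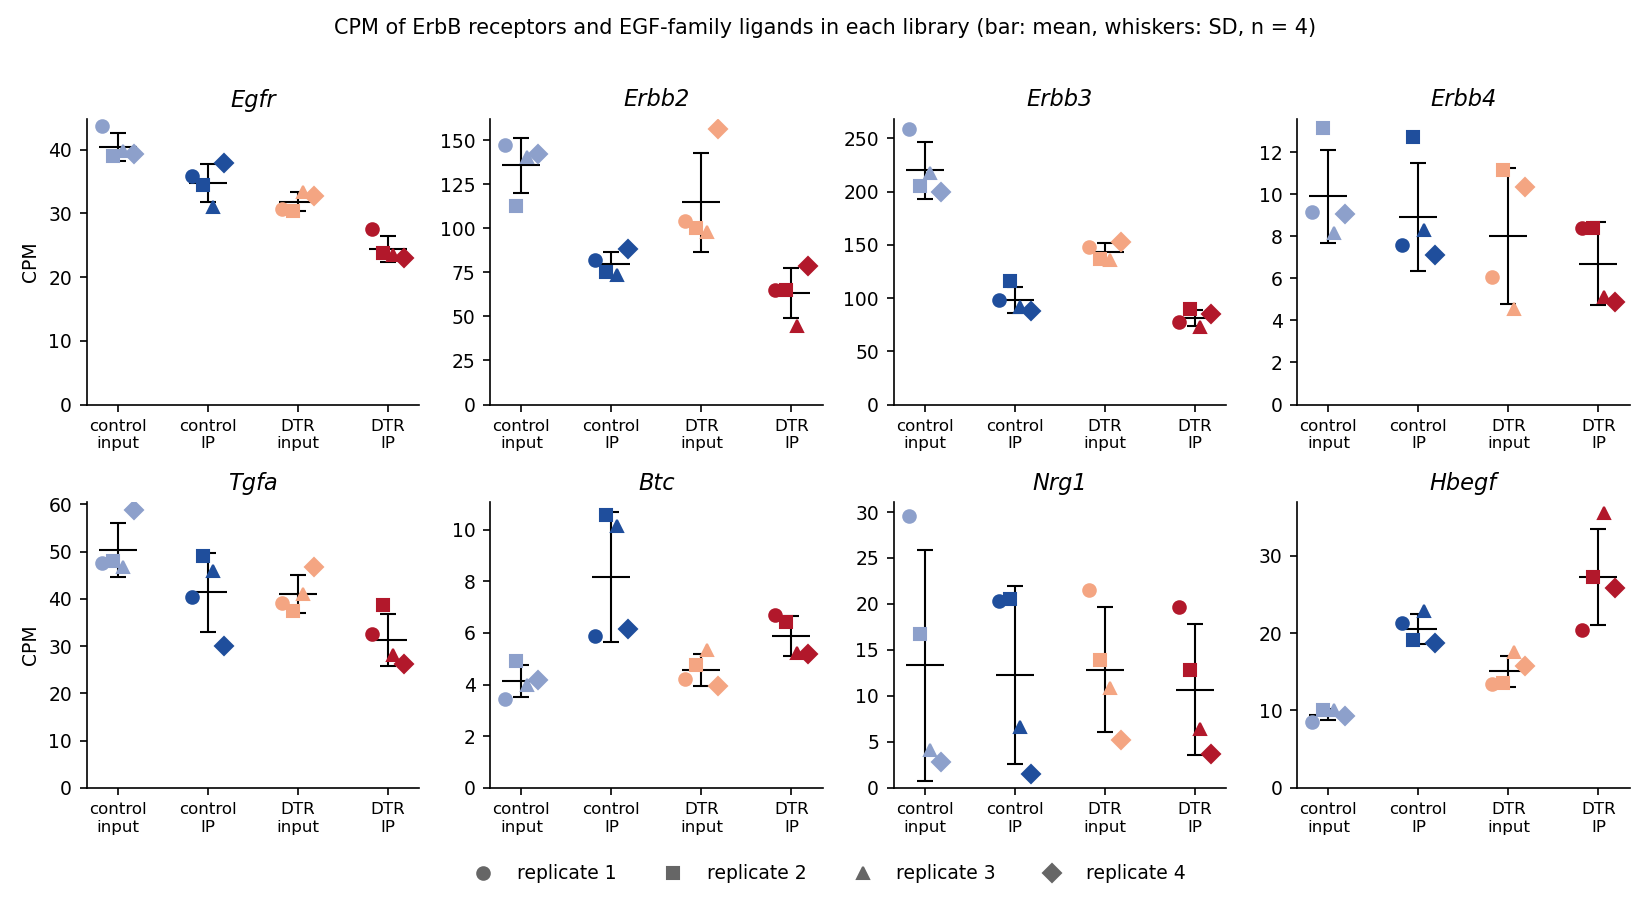
CPM of the 7 tested genes and of Hbegf in each library, by group, with the mean as a horizontal bar and whiskers of 1 SD (n = 4), each axis starting at 0 and symbol shapes marking the replicate number. Egfr shows 2 steps down, from control to DTR and from input to IP, Btc is the tested gene of the set whose control IP libraries all lie above control input, and the whiskers of Nrg1 span most of its range.

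Among the ligands, Tgfa, a ligand of EGFR (ENSMUSG00000029999, chr6:86195223-86275719, plus strand), was the most abundant in CPM. Control input held 47.7, 47.9, 46.8 and 58.8 CPM and control IP 40.5, 49.1, 45.9 and 30.1 CPM. DTR input held 39.2, 37.4, 40.9 and 46.7 CPM and DTR IP 32.6, 38.6, 28.0 and 26.2 CPM. DTR IP was below control IP in 4 of 4 pairs of the same number, although the groups overlapped through replicate 4 of control IP. The LFC after damage in IP was -0.43 ± 0.14 (limma adjusted p = 0.041, and 0.029 with the replicate block). It passed in 9 of 16 fits with 1 library left out. It missed the threshold without control IP replicate 1 (adjusted p = 0.066), 2 (0.11) or 3 (0.127), without DTR IP replicate 1 (0.075), 3 (0.096) or 4 (0.11) or without control input replicate 2 (0.0504), and also without quantile normalization (0.091). In input the 4 DTR libraries were all below the 4 control libraries, with an LFC of -0.29 ± 0.14 that missed the threshold (adjusted p = 0.21). Tgfa was lower in IP than in input in DTR cochleae, with an LFC of -0.45 (adjusted p = 0.014), and the control groups had an LFC of -0.31 (adjusted p = 0.081). An exon of Tgfa overlaps the antisense gene Gm43917.

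Supporting cell markers fell after damage in IP, as Egfr and Tgfa did, and in input, as Egfr did. Of 6 markers, 4 were lower in DTR IP than in control IP (5 with the replicate block) and 5 were lower in DTR input than in control input, and none was higher. Their median LFC was -1.31 in IP and -1.74 in input. The sum, which the most abundant markers weigh most, overlapped between genotypes in both. Their summed CPM ranged from 2012 to 2615 in control IP, 1534 to 2219 in DTR IP, 2502 to 2926 in control input and 2205 to 2899 in DTR input, and none of the 6 was at 0 in any library. Of 6 mesenchyme markers, 4 rose in IP after damage, their sum ranging from 3898 to 4710 against 2243 to 3371 CPM. Of 8 macrophage markers, 5 were higher after damage in IP (36.1 to 55.9 against 15.6 to 24.9 CPM in sum) and 5 in input (133 to 217 against 97.8 to 104 CPM). Of 9 hair cell markers, 3 were higher in IP after damage (4 with the replicate block) and none was lower, their sum ranging from 259 to 295 against 169 to 249 CPM. GER markers did not fall as a list. Of 5, none was higher and 1 was lower in IP after damage (1 and 1 with the replicate block), with a median LFC of 0.19. In input 2 were higher and 1 was lower (4 and 1 with the block), with a median LFC of 0.46. The part of these cells in the values of Egfr and Tgfa was not tested.

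Btc, a ligand of both EGFR and ERBB4 (ENSMUSG00000082361, chr5:91357261-91402994, minus strand), was the gene of the set that was enriched in control IP. Control input held 3.43, 4.93, 3.97 and 4.17 CPM and control IP 5.86, 10.6, 10.1 and 6.15 CPM. The groups did not overlap, and the control IP libraries fell into a higher pair (replicates 2 and 3) and a lower pair (replicates 1 and 4). The mean was 1.98 times that of input, with an LFC of 0.93 ± 0.19 (limma adjusted p = 0.00058). DTR input held 4.19, 4.76, 5.34 and 3.96 CPM and DTR IP 6.68, 6.41, 5.23 and 5.20 CPM, which overlapped, with an LFC of 0.39 ± 0.19 (adjusted p = 0.10, and 0.053 with the block). From control IP to DTR IP the LFC was -0.48 ± 0.19 (adjusted p = 0.090). It was lower in 3 of 4 pairs of the same number, and passed with the replicate block (adjusted p = 0.037). In input Btc did not differ detectably after damage (LFC 0.054, 95% confidence interval -0.34 to 0.45).

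Nrg1, the ligand of ERBB3 and ERBB4 that axons present to Schwann cells (ENSMUSG00000062991, chr8:31814551-32884029, minus strand), varied more between replicates than between groups. It was 29.6, 16.7, 4.11 and 2.82 CPM in control input and 20.3, 20.6, 6.64 and 1.47 CPM in control IP. DTR input held 21.5, 13.9, 10.8 and 5.15 CPM and DTR IP 19.7, 12.9, 6.36 and 3.72 CPM. In each of the 4 groups, replicates 1 and 2 were both above replicates 3 and 4, by a mean ratio of 3.78. No comparison passed, and the LFC after damage was -0.0064 ± 0.71 in IP (limma adjusted p = 0.997) and 0.30 ± 0.71 in input (adjusted p = 0.86), with 95% confidence intervals of -1.49 to 1.48 and -1.18 to 1.79. The sum of 8 neuron markers showed the same split in 4 of 4 groups, by a ratio of 3.53. Control input had sums of 916, 817, 249.9 and 209 CPM and control IP of 425, 423, 161 and 126 CPM. DTR input had sums of 790.2, 465, 236 and 86.7 CPM and DTR IP of 432, 246, 156 and 53.0 CPM, and none of the 8 was at 0 in any library. Nrg3, a related neuregulin of neurons, also followed the split in 4 of 4 groups. So did the sum of 4 melanocyte markers, by a ratio of 2.95 (1.42 to 67.2 CPM over the 16 libraries, with Tyr and Tyrp1 at 0 in 6 libraries each), and the mesenchyme sum did in 3 of 4 groups, by a ratio of 1.13. None of the other 6 tested genes did so in more than 2 groups. The part of RNA of these cells in the values of Nrg1 was not tested. The values of Nrg1 are uncertain to the extent that reads of the antisense gene Gm26578 were counted with it.

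Areg, Ereg and Epgn, ligands of EGFR that lie with Btc in 1 cluster of chromosome 5, were at or near the limit of detection. Areg (ENSMUSG00000029378, chr5:91139599-91148432) had 0 to 8 reads per library, at most 0.24 CPM, in control IP replicate 1. Ereg (ENSMUSG00000029377, chr5:91074622-91093646) had 0 to 4 reads and was at 0 in 11 of 16 libraries, which allows up to between 0.0715 and 0.107 CPM in each. Epgn (ENSMUSG00000035020, chr5:91027464-91035215) had 0 to 20 reads, at most 0.58 CPM, in control IP replicate 2. All 3 had libraries at 3 reads or fewer in several groups. No fold change was taken, and differences between groups were not tested in the main fit. These limits cover counting error only.

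Promoter sequence is shown for the pair that fell in DTR IP, Egfr and Tgfa, and for Areg as a ligand of the same receptor that was near silent. Each is the stretch of 250 bases before the RefSeq start (GRCm38.p6), 5′ to 3′ on the gene's strand, with capitals marking a GC box (GGGCGG, either strand) or a TATA box (TATAAA). Sequences were found for 7 of the 10 genes.
Egfr (chr11:16751953-16752202, plus strand): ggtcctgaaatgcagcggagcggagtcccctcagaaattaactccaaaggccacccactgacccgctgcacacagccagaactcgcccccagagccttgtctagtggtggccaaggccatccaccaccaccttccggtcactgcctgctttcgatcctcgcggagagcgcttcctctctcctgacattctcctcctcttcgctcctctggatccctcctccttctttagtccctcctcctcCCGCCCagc
Tgfa (chr6:86194972-86195221, plus strand): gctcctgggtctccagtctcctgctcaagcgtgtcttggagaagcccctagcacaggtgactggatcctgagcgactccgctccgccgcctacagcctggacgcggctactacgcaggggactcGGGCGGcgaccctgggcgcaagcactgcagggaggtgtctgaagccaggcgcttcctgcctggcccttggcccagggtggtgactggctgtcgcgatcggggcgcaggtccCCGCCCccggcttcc
Areg (chr5:91139349-91139598, plus strand): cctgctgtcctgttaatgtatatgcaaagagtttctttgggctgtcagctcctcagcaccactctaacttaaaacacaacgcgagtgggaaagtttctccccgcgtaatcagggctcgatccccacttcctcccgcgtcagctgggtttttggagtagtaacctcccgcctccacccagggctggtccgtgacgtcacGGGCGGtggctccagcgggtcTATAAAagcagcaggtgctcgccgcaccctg
The Egfr stretch had 60.8% GC, 11 CpG and 1 GC box, and that of Tgfa 69.2% GC, 19 CpG and 2 GC boxes. That of Areg had 57.2% GC, 15 CpG, 1 GC box and a TATA box from base 31 to base 26 before the start. Of 32841 mouse promoters of the same length, 32.7% held a GC box and 12.4% a TATA box, and the medians were 52.4% GC and 6 CpG. Neither the EGR motif GCGNGGGCG (4.70% of promoters) nor the AP-1 motif TGANTCA (6.75%), searched on both strands, was found in these windows of the 7 genes. An EGR match can overlap a GC box. A match describes the letters only.

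**Figure D5:**
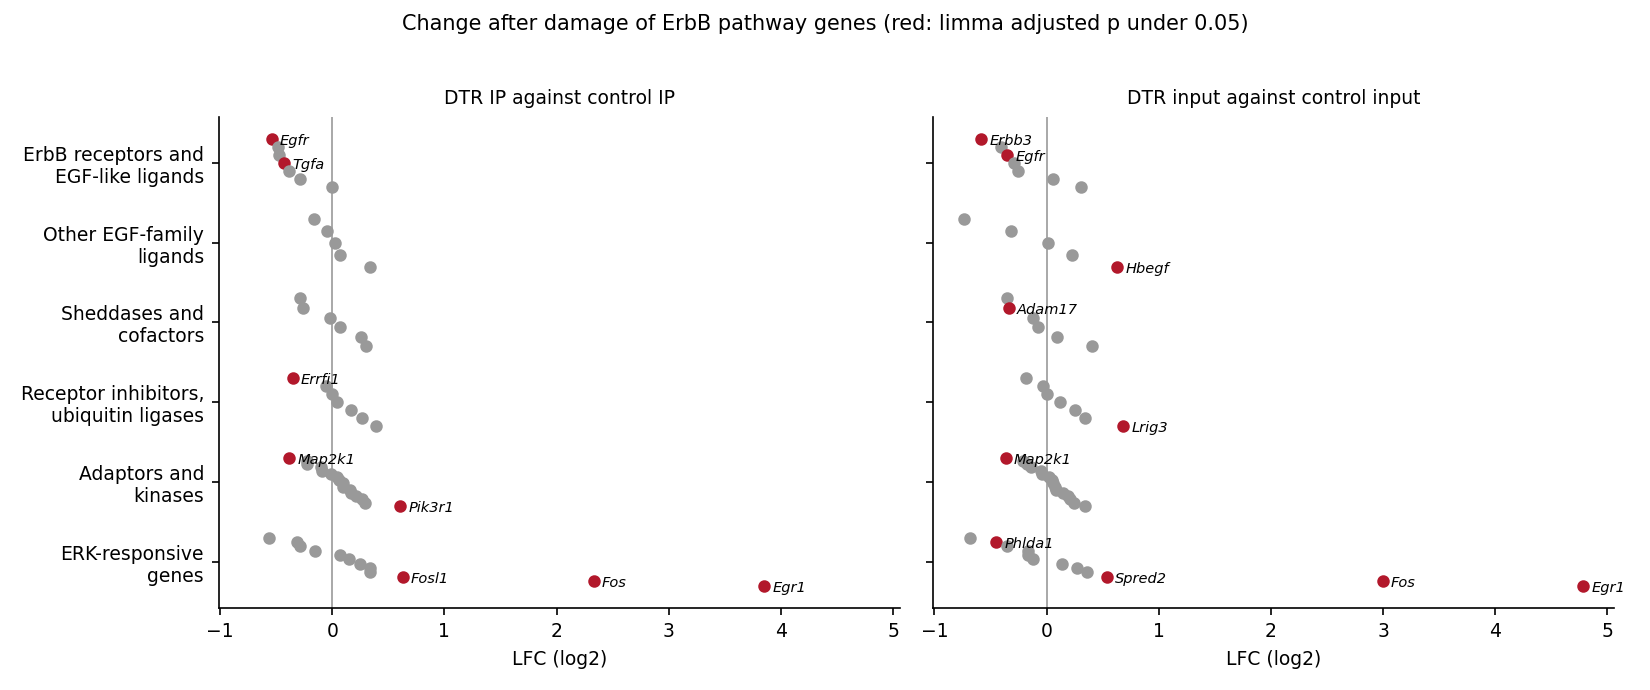
LFC after damage of the tested genes of the set and of 5 lists of related genes, in IP (left) and in input (right), 1 point per gene, with genes of adjusted p under 0.05 (limma) in red and named. Most points lie near 0, the red points of the receptors and ligands lie left of it, and Egr1 and Fos lie far right in both panels.

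Whether damage changed the IP to input ratio was asked with an interaction term. None of the 7 genes passed, where 0.0118% of all genes did (2 of 16994, with 870 or 5.12% at an unadjusted p under 0.05). With the replicate block 0.235% of all genes passed (0.0883% higher and 0.147% lower) and again none of the 7. The 2 genes with unadjusted p nearest to the threshold were Btc, with an interaction of -0.54 and a 95% confidence interval of -1.09 to 0.017, and Erbb3, with 0.29 and an interval of -0.014 to 0.59. With the block, the interaction of Btc was -0.54 ± 0.23 (SE), with an unadjusted p of 0.031 and a limma adjusted p of 0.47, and that of Erbb3 had an adjusted p of 0.58. After adjustment over all genes, a change of the IP to input ratio was thus not resolved for either gene.

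The genes with the most similar pattern over the 16 libraries, by Pearson r of log2 quantile-normalized CPM, were Nedd9 and Cd99l2 for Egfr (r = 0.94 each), Atp6v0a2 (0.98), Cnnm3 (0.98) and Nfe2l1 (0.97) for Erbb2, and Map4 (0.98), Scd2 (0.98) and Camsap2 (0.98) for Erbb3. For Erbb4 they were Agap1 (0.86), Gm37174 (0.86) and Radil (0.83), for Tgfa they were Dse (0.94), Tmem168 (0.93) and AI597479 (0.93), and for Btc they were Kcns3 (0.92), Hmgb3 (0.92) and Uspl1 (0.90). For Nrg1 they were Scn3a (0.94), a neuronal sodium channel, Ina (0.93), a neuronal intermediate filament, and Bcat1 (0.92). Within the set, Erbb2 and Erbb3 had an r of 0.88 and Btc correlated negatively with both (-0.60 and -0.63). The libraries share group and pool, so these values describe the groups as much as the single libraries.

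Of the other EGF-family ligands (Hbegf, Egf, Nrg2, Nrg3 and Nrg4), all 5 were tested. Hbegf, which encodes HB-EGF, a ligand of EGFR and ERBB4, rose in input after damage. It lay between 8.51 and 10.1 CPM in control input and between 13.4 and 17.6 CPM in DTR input, without overlap, an LFC of 0.63 ± 0.17 (limma adjusted p = 0.016). Control IP held 21.3, 19.1, 22.8 and 18.7 CPM and DTR IP 20.4, 27.2, 35.5 and 25.8 CPM, with an LFC of 0.34 that missed the threshold (adjusted p = 0.20). It was higher in IP than in input in every pair, by an LFC of 1.08 in control (adjusted p = 4.6e-05) and 0.79 in DTR cochleae (adjusted p = 0.00099). DTR mice carry the human HBEGF coding sequence, and reads of that transcript and of mouse Hbegf cannot be told apart in these values. In control IP, Nrg2 was higher (LFC 0.61, adjusted p = 0.043) and Nrg3 lower (LFC -1.47, adjusted p = 0.044) than in control input, and in DTR IP Nrg4 was higher than in DTR input (LFC 0.50, adjusted p = 0.040). With the replicate block Nrg4 was also higher in control IP (adjusted p = 0.042) and Nrg3 also lower in DTR IP (adjusted p = 0.018), each against its input. None of the 5 passed for DTR IP against control IP. Without quantile normalization neither Nrg2 nor Nrg3 passed in control IP, and with CPM centred on library medians neither Nrg2 nor Nrg4 did.

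A further list held 7 genes: Errfi1, the Lrig family (Lrig1, Lrig2 and Lrig3) and the ubiquitin ligase genes Cbl, Cblb and Rnf41. Of these, 5 were higher and 1 was lower in control IP than in control input, against 19.3% and 20.7% of all genes. With the replicate block 5 were higher and 2 lower, against 23.6% and 25.3%. Errfi1, a feedback inhibitor of the EGFR kinase, was higher by an LFC of 1.11 (limma adjusted p = 1.9e-07), and Lrig3 by 1.00 (adjusted p = 0.00013), whereas Lrig1, a transmembrane inhibitor of ErbB receptors, had an LFC of -0.58 (adjusted p = 0.0022). After damage Errfi1 fell in IP, from between 90.6 and 105 CPM to between 64.0 and 90.4 CPM. The groups did not overlap, and the LFC was -0.35 ± 0.11 (adjusted p = 0.029). That call was lost without quantile normalization. In input, 1 of 7 was higher after damage, Lrig3 (LFC 0.69, adjusted p = 0.012), and with the replicate block 2 were, with Lrig2 (adjusted p = 0.019).

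Of 6 sheddases and cofactors, Adam10 was lower in control IP than in control input (LFC -0.54, limma adjusted p = 0.022), and Adam17, the main sheddase of EGFR ligands, was lower in DTR input than in control input (LFC -0.34, adjusted p = 0.041). None passed for DTR IP against control IP or for DTR IP against DTR input. With the replicate block Rhbdf2, an iRhom that escorts ADAM17, was higher in DTR input than in control input (LFC 0.40, adjusted p = 0.043), and Adam19 was higher (LFC 0.36, adjusted p = 0.031) and Adam10 lower (LFC -0.45, adjusted p = 0.024) in DTR IP than in DTR input. Of 16 adaptors and kinases, 1 rose and 1 fell in IP after damage, against 8.44% and 7.30% of all genes. With the replicate block 2 rose and 1 fell, against 12.2% and 11.1%. Pik3r1, a regulatory subunit of PI3 kinase, rose (LFC 0.61, adjusted p = 0.0013), and Map2k1, which encodes MEK1, fell (LFC -0.39, adjusted p = 0.010) and was also the 1 of 16 that passed in input (LFC -0.37, adjusted p = 0.017).

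Of 12 ERK-responsive genes, 3 were higher and none was lower after damage in IP (8.44% of all genes were higher and 7.30% lower). With the replicate block 4 were higher and 2 lower (12.2% and 11.1% of all genes). In input 3 were higher and 1 was lower (7.17% of all genes were higher and 5.21% lower), or 3 and 3 with the block (9.76% and 7.99%). Egr1, an immediate early transcription factor, lay between 42.2 and 58.4 CPM in control IP and reached 1128, 1099, 324 and 518 CPM in DTR IP replicates 1 to 4 (LFC 3.85 ± 0.40, limma adjusted p = 1.4e-06). Fos lay between 7.26 and 8.88 CPM in control IP and reached 82.7, 57.5, 28.0 and 31.6 CPM in DTR IP (LFC 2.33 ± 0.33, adjusted p = 5.5e-05). In both genes every DTR library was above every control library, and replicates 1 and 2 were above 3 and 4 within DTR IP. Fosl1 was low and rose from between 0.458 and 0.960 to between 1.39 and 1.77 CPM (LFC 0.63, adjusted p = 0.033). The other genes of the list did not pass in IP without the block. Their mean CPM in IP after damage was lower for Dusp6, Spry2, Spry4 and Phlda1. It was higher for Ier3, Spred1, Spred2, Etv4 and Etv5. In the interaction none of the 12 genes passed without the block, also without quantile normalization or with CPM centred on library medians. With the replicate block, the interaction of Egr1 was -0.93 (limma adjusted p = 0.023), its rise being smaller in IP than in input in that fit. The median LFC of the 12 genes in DTR IP against control IP was 0.20, against -0.0043 over all genes.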

How the data were processed

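RNA of 16 mouse cochlear libraries was sequenced by the authors after SMART-Seq v4 preparation, with 5% of each homogenate kept as input and 95% used for the anti-HA immunoprecipitation. Per the study's methods reads were aligned to GRCm38 with HISAT2 and counted with HTSeq, whereas the submitters' processing notes name TopHat. The strand setting and the annotation are not given in the sources used here. The deposited values are CPM per gene, and 100% of them were whole multiples of what 1 read is worth (tolerance 0.01 reads), so that counts could be recovered.

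The 10 genes, the related gene lists and the markers were chosen with earlier results of these data known. Named were all 10 genes, genes of the first 3 related lists, and of the last 2 lists up to 3 with the largest absolute LFC past the test in DTR IP against control IP. Rhbdf2, Adam19, Nrg4 and Lrig2 under the replicate block were named after their values were seen. The ERK-responsive genes given by direction only were also named after that. For each tested gene the 3 genes with the most similar pattern were named, of which 1 is not reported here. Genes that reached 0.5 CPM in every library of 1 or more groups were kept, CPM were quantile normalized, and log2(CPM + 0.5) was fitted with limma 3.58.1 in R 4.3.3 (mean-variance trend, 4 group means, two-sided, Benjamini-Hochberg over 16994 genes). Replicates were pools of mice. The main fit treats the 16 libraries as independent, although each pool gave 1 input and 1 IP library. Its p-values measure the spread between libraries within groups and leave this pairing out. With the pool as a block, those of IP against input and of the interaction measure the spread left within pools. Libraries of the same replicate number deviated together, with correlations of at least 0.288 in control input and IP, 0.312 in DTR input and IP, 0.306 in the IP groups and 0.291 in the input groups, so a fit with the number as a block is given where it changes a call. Labels give the numbers but not what they mark.

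Alternatives were no quantile normalization, centring, other pseudocounts and filters, a correction for exonic length (known for 99.7% of tested genes), the compared groups alone, the replicate block, edgeR 4.0.16 and DESeq2 1.42.0 on the recovered counts, each library left out, and replicates 1 and 2 or 3 and 4 alone, which was chosen after seeing the data. The fit was tested on simulated data. Positions and lengths are from GENCODE M21.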

Additional observations from a re-analysis of the deposited data

Results flagged for a closer look

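Among 28 groups of 4 libraries (7 tested genes in 4 groups), 4 had 1 library far from the other 3, with a gap to the nearest library above Dixon's critical value as a share of the group's range. Chance alone gives about 1 in 20 such groups. Egfr in control input was highest in replicate 1, at 43.7 CPM against 39.1 to 39.8 in the others (a gap of 0.856 of the range), and Egfr in DTR IP was highest in replicate 1, at 27.5 CPM against 23.0 to 23.7 (0.838). Erbb2 in DTR input was highest in replicate 4, at 157 CPM against 97.8 to 104 (0.887). Tgfa in control input was highest in replicate 4, at 58.8 CPM against 46.8 to 47.9 (0.907). With each of these libraries left out alone, the LFC of Egfr in DTR input against control input was -0.31 and missed the threshold (limma adjusted p = 0.103), and in DTR IP against control IP it was -0.58 (adjusted p = 0.0021). The LFC of Erbb2 was -0.71 in DTR IP against DTR input (adjusted p = 0.0019) and -0.41 in DTR input against control input (adjusted p = 0.11), and that of Tgfa in DTR input against control input was -0.21 (adjusted p = 0.46).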

How the results depend on the processing

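In the fit without the replicate block, 2 of 7 genes passed for DTR IP against control IP. That count was 1 without quantile normalization, with no filter on low values and with the compared groups alone, 5 with the replicate block, and 0 with replicates 1 and 2 alone or 3 and 4 alone, each with 2 libraries a group. It ranged from 1 to 3 with 1 library left out, and was 1 without DTR IP 1 or 3, control IP 2 or 3 or control input 2. For DTR input against control input 2 passed, but 1 when corrected for exonic length and with replicates 1 and 2 alone, 0 with replicates 3 and 4 alone, and 1 to 2 with 1 library left out (1 without any control input library or DTR input 1, 2 or 4). For DTR IP against DTR input 4 became 2 with replicates 1 and 2 alone. The replicate numbers pair the libraries, and the block changed no other call of the 7 genes than those given in the report. Calls over all genes in the interaction were 2 with limma, 40 with the block, 0 with edgeR and 49 with DESeq2. The cause of these changes was not tested.

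The sign changed only in comparisons in which the gene passed no test. For Nrg1 in control IP against control input the LFC was 0.077 corrected for exonic length and 0.089 with replicates 3 and 4 alone. In DTR IP against control IP it was 0.085 without quantile normalization, 0.042 centred, 0.018 with a pseudocount of 0.1 and 0.34 with replicates 3 and 4 alone. In DTR input against control input it was -0.062 with edgeR, -0.093 with DESeq2 and -0.37 with replicates 1 and 2 alone. With replicates 1 and 2 alone, Erbb4 had 0.058 in DTR IP against DTR input, and the interaction was 0.036 for Erbb2, 0.21 for Erbb4 and 0.025 for Nrg1. With 1 library left out, Nrg1 ranged from -0.54 to 0.61 in control IP against control input, -0.72 to 0.014 in DTR IP against DTR input, -0.66 to 0.37 in DTR IP against control IP, -0.19 to 0.87 in input after damage and -0.97 to 0.19 in the interaction. Erbb4 ranged from -0.23 to 0.021 in control IP against control input, -0.38 to 0.027 in DTR IP against DTR input and -0.28 to 0.12 in the interaction, Btc from -0.043 to 0.12 in input after damage, and Erbb2 from -0.27 to 0.027 in the interaction. Of all LFC values, 414 of 448 kept direction and side of the threshold under the other settings and 515 of 560 with 1 library left out. Depth limits Areg, Ereg and Epgn, and 4 pools a group limit Erbb4 and Nrg1.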
